A study of Mus musculus with 16 samples.

Results

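Phlda3, Ccng1, Cox6b2 and Dcxr were followed through every cell class of 16 single-cell libraries, as 4 genes of the 31053 features counted. They had been chosen from these same data because conventional dendritic cells (cDCs) of both tumors carried more of their transcripts 24 h after irradiation. Their cDC values are therefore given as a description with no test, and the tests below concern the other classes, which come from the same mice and libraries as the cDCs.

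Libraries came from C57BL/6J mice with a subcutaneous tumor of MC38, a mouse colorectal carcinoma line, or of Panc02-SIY, a mouse pancreatic cancer line engineered to carry SIY, a model antigen. For each tumor, untreated mice (NT) were compared with mice given a single CT-guided dose of 12 Gy to the tumor (RT), with 4 libraries in each of the 4 groups, and every tumor was taken 24 h after treatment. The labels name no further allele or agent in any group. Live CD45+ cells were enriched and sorted before droplet capture, so the barcodes of tumor or stromal type that remain are those that passed this sort. GEO's design text gives 4 animals per group and the study's methods give fewer, and no label ties a library to an animal, so p-values measure the spread between these libraries.

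Ionizing radiation breaks DNA, and the transcription factor p53 is stabilized in response and switches on genes for cell cycle arrest, repair and death. Phlda3 and Ccng1 are known p53 targets. Phlda3 encodes a small protein with a pleckstrin homology domain that competes with the kinase Akt for membrane lipids, and Ccng1 encodes cyclin G1, which recruits a phosphatase to the p53 regulator Mdm2. Cox6b2 encodes the testis type of a cytochrome c oxidase subunit, and Dcxr encodes dicarbonyl and L-xylulose reductase, an enzyme of sugar metabolism.

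The promoters of the 4 genes are printed because p53 binds DNA directly and Phlda3 and Ccng1 are among its targets. Each runs from 250 bases before to 50 bases after the start in the RefSeq table for GRCm38.p6 and is written in the direction of transcription. They lie at chr1:135765835-135766134 on the plus strand for Phlda3, and on the minus strand at chr11:40755237-40755536 for Ccng1, chr7:4753045-4753344 for Cox6b2 and chr11:120727235-120727534 for Dcxr. Capitals mark a match to the p53 consensus element of 10 bases, searched on both strands.
Phlda3: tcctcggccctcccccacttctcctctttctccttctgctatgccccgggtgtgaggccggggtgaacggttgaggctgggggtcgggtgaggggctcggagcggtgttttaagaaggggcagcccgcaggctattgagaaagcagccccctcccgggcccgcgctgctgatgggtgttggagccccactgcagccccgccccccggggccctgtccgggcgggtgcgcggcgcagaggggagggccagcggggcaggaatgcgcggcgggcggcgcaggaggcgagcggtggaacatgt
Ccng1: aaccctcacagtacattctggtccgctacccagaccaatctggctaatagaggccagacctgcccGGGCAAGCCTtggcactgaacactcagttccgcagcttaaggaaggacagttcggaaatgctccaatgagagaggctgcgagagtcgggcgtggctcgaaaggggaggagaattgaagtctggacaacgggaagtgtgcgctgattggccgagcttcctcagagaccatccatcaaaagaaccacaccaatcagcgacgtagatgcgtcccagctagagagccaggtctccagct
Cox6b2: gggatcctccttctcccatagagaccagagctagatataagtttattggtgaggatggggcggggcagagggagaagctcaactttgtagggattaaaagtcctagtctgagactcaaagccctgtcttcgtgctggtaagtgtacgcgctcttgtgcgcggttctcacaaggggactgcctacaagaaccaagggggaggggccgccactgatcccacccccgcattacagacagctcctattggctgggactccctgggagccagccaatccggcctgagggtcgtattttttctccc
Dcxr: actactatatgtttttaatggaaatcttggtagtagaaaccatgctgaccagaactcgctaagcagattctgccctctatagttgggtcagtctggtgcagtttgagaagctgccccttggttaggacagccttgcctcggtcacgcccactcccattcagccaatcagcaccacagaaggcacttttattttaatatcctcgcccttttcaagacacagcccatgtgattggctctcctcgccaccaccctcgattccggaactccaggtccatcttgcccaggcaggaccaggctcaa
Only the Ccng1 window held a match among these 4, GGGCAAGCCT, 185 bases before the start. Such a match occurred in 8.36% of the 32851 promoters in the table and in 15 of 53 promoters (28.3%) of 38 genes of the p53 list described below. A pair of matches within 13 bases, the full element, was found in none of the 4 windows and in 24 of all promoters (0.0731%). A window without a match says only that these letters are not in it.

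The 16 libraries held 28678 barcodes and 187735117 UMIs (unique molecular identifiers, each standing for 1 captured transcript molecule). Untreated MC38 libraries held between 4829078 and 9833668 UMIs and irradiated ones between 3240877 and 10121198, against 6561383 to 43776342 and 5327146 to 26824513 in Panc02-SIY. MC38 libraries shared cell barcodes: their 9843 barcodes were 2632 distinct sequences, 769 of them present in all 8 libraries, and a pair of libraries shared a median of 83.3% of the smaller one against 5.54% in Panc02-SIY. Each barcode was therefore kept only in the library of its tumor where it had most UMIs, which left 20768 barcodes, and the main MC38 results are given with all barcodes as well. The kept barcodes held between 42.8% and 86.4% of the UMIs of an MC38 library and at least 99.0% in Panc02-SIY.

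Barcodes were clustered and clusters named from class markers, as in "T cell-like". T cell-like clusters raised 7 or 8 of 8 T cell markers in the kept data, NK cell-like clusters 4 or 8 of 8, the monocyte-like cluster 8 of 8 and B cell-like 8 of 8. Macrophage-like cells lay mostly in different clusters in the tumors. Cluster 5, led by Arg1 and Apoe, held 551 untreated and 477 irradiated MC38 barcodes, while cluster 6, led by Fcgr4 and Cd72, held 595 and 461 of Panc02-SIY and none of MC38. Of Panc02-SIY, cluster 5 held 11 untreated and 48 irradiated barcodes, and macrophage-like cluster 20, led by Cd300e and Mki67, held 115 and 52. The cDC-like clusters were cluster 14, led by Cd209a and Naaa with 10 of 14 cDC markers raised, and cluster 24, led by Fscn1 and Ccr7 with 8 of 14. Levels are given as CPM, the UMIs of a gene out of all UMIs of a class in a library, scaled to a total of 1000000, without gene length, so genes are not ranked against each other. A class was tested where at least 3 libraries of a group had 10 or more of its barcodes. A gene was called at an edgeR adjusted p below 0.1 and a fold above 1.3. Where groups are said to be apart or not to overlap, the share of all genes for which this holds was not counted. Such statements describe the values and are not a result about the 4 genes.

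In cDC-like barcodes, Phlda3 was absent from all untreated MC38 libraries (0 CPM in each of the 4, which together allow up to 2.78) and reached 127, 57.8, 115 and 86.8 in irradiated ones. In Panc02-SIY it was 0, 0, 5.33 and 1.44 untreated and 22.9, 13.5, 27.5 and 46.4 irradiated. The groups did not overlap in either tumor. Over the pooled counts of kept barcodes the MC38 level was at least 34.2-fold higher after irradiation, where the bound sets the untreated group at 3 UMIs. With every barcode kept in every library, the 4 untreated MC38 libraries had between 6.66 and 29.0 and the irradiated ones between 69.98 and 112.5, still apart. The ratio of their means was then 4.89, so the bound of 34.2 depends on keeping each barcode in 1 library.

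Ccng1 in cDC-like barcodes was 47.8, 20.1, 22.5 and 33.8 CPM in untreated MC38 tumors and 190, 173, 180 and 121.5 in irradiated ones. In Panc02-SIY it was 67.1, 62.0, 53.3 and 53.2 untreated and 145, 69.1, 153 and 149.8 irradiated, with irradiated replicate 2 just above the highest untreated library. Unlike Phlda3, Ccng1 had UMIs in every untreated cDC sum. With every barcode kept, the MC38 groups ranged from 31.7 to 60.5 and from 120.2 to 169.

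Cox6b2 in cDC-like barcodes was 15.9, 0, 2.25 and 6.77 CPM in untreated and 94.96, 231, 41.0 and 47.7 in irradiated MC38 libraries. It was 18.8, 10.1, 3.55 and 4.32 against 22.9, 39.1, 38.8 and 34.45 in Panc02-SIY. No irradiated library fell to the level of an untreated one of its tumor, although the highest untreated and lowest irradiated Panc02-SIY libraries, both replicate 1, lay close together. With every barcode kept, the MC38 ranges were 8.64 to 39.9 untreated and 42.8 to 166 irradiated.

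Dcxr in cDC-like barcodes was 21.2, 20.1, 24.7 and 20.3 CPM in untreated and 111, 137, 104 and 86.8 in irradiated MC38 libraries. The Panc02-SIY values were 45.65, 16.8, 15.997 and 21.6 untreated and 68.7, 46.6, 52.1 and 47.8 irradiated. Here too the groups were apart, narrowly so between untreated replicate 1 and irradiated replicate 2 of Panc02-SIY. The MC38 ranges with every barcode kept were 29.99 to 47.2 and 78.9 to 122. The sums rest on few barcodes, between 4 and 27 per MC38 library and between 28 and 95 per Panc02-SIY library.

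**Figure D1:**
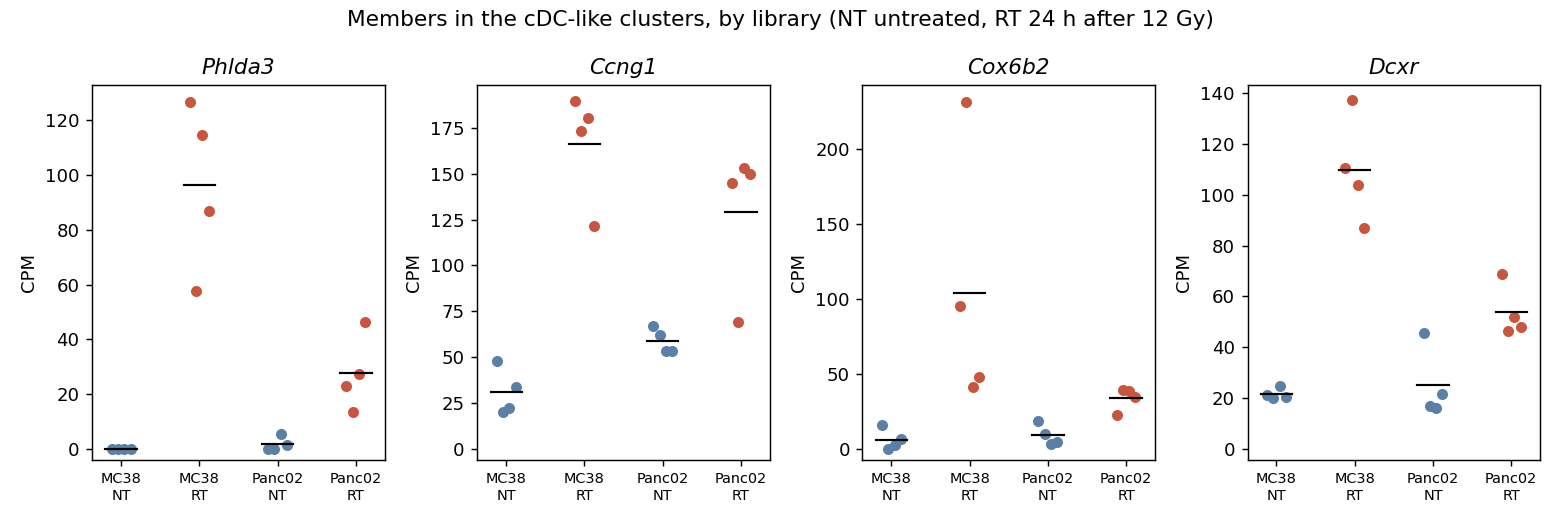
CPM of the 4 genes in the kept barcodes of the cDC-like clusters, 1 point per library, for untreated and irradiated MC38 and Panc02-SIY tumors. In each panel and tumor the irradiated points lie above the untreated ones, for genes that were chosen on this contrast.

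The choice had been made in cDC-like barcodes with a UMI of the cDC transcription factor gene Zbtb46, with all barcodes kept in every library. In a refit of that contrast 8306 genes were tested, 7 were raised in MC38 (0.0843%), 30 in Panc02-SIY (0.361%) and 4 in both (0.0482%). The fitted log2 fold changes in MC38 and Panc02-SIY were 5.80 and 4.49 for Phlda3, 2.42 and 1.44 for Ccng1, 2.18 and 1.94 for Dcxr, and 4.21 and 2.22 for Cox6b2. Cox6b2 lay just inside the threshold, with 0.0790 as the larger of its adjusted p-values, and the nearest genes outside were Exoc4, at 0.171 with log2 fold changes of 2.11 and 1.07, and Epha2, at 0.454 with 2.44 and 2.33. In kept barcodes with Zbtb46, irradiated MC38 replicate 2 had 2 barcodes and no UMI of Cox6b2 or Dcxr.

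Outside the cDCs, the MC38 macrophage-like cells showed all 4 genes higher after radiation therapy. Phlda3 was 4.41, 3.43, 6.70 and 2.38 CPM in the untreated and 50.8, 105, 88.1 and 67.6 in the irradiated libraries. Ccng1 went from 32.4, 28.9, 39.8 and 32.0 to 148, 183, 191 and 152. For both p53 targets, the lowest irradiated library was several times the highest untreated one.

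Cox6b2 in the same cells was lower throughout, at 6.77, 3.05, 5.91 and 4.76 CPM untreated and 11.9, 16.45, 13.035 and 11.4 irradiated. Dcxr was 34.1, 28.9, 38.0 and 37.6 untreated and 74.5, 115, 96.1 and 87.8 irradiated. The groups were apart for each of the 4 genes, with the narrowest gap for Cox6b2.

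All 4 of the 4 genes were called as raised in MC38 macrophage-like cells, where 6.47% of the 10365 genes tested were raised. The log2 fold change was 4.34 (SE 0.249, edgeR adjusted p 2.33e-09) for Phlda3 and 2.43 (SE 0.12, adjusted p 1.34e-11) for Ccng1. It was 1.43 (SE 0.2805, adjusted p 0.00174) for Cox6b2 and 1.52 (SE 0.138, adjusted p 3.33e-07) for Dcxr. With every barcode kept in every library the changes were 2.42, 1.64, 1.05 and 1.05 in the same order and all 4 were called (background 2.12%), so the sharing of barcodes went with smaller folds. The untreated level of Phlda3 was then between 8.24 and 16.9 CPM. Summed monocyte markers in the macrophage-like class were also higher after irradiation, between 2105 and 3124 CPM untreated and between 3318 and 4216 irradiated, while cDC markers were between 157 and 274 and between 203 and 275, and their part in the result was not tested.

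Panc02-SIY macrophage-like cells showed the 4 genes higher as well. Untreated replicate 1 had 7 of these barcodes and was left out. Phlda3 was 2.475, 1.63 and 1.91 CPM in the other untreated libraries and 12.9, 25.98, 27.1 and 22.5 in irradiated ones. Ccng1 was 59.9, 59.5 and 53.5 untreated and 148, 188, 167 and 185 irradiated. Neither gene overlapped between the groups.

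Cox6b2 was 1.98, 4.07 and 3.72 CPM in untreated Panc02-SIY macrophage-like cells and 0, 14.25, 14.6 and 11.9 in irradiated ones. The 0 came from irradiated replicate 1, with 17 barcodes, and made the groups overlap. Dcxr was 26.2, 33.4 and 29.0 untreated and 48.2, 43.6, 53.4 and 65.65 irradiated, with no overlap.

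All 4 genes were again called, where 3.79% of genes were raised. The log2 fold changes were 3.57 (SE 0.380, edgeR adjusted p 3.88e-05) for Phlda3, 1.65 (SE 0.133, adjusted p 1.39e-07) for Ccng1, 1.86 (SE 0.362, adjusted p 0.00591) for Cox6b2 and 0.96 (SE 0.172, adjusted p 0.00306) for Dcxr. Summed monocyte markers were between 117 and 208 CPM untreated and between 218 and 2283 irradiated. Summed cDC markers were between 300 and 358 untreated and between 386 and 411 irradiated. Neither list overlapped between the groups, and the part of both in the result was not tested. Within cluster 6 alone, Phlda3 (3.32) and Ccng1 (1.44) were called and Dcxr was not (0.63, adjusted p 0.223), with a background of 0.464%, and Cox6b2 did not pass the filter on low counts.

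None of the 4 genes passed an edgeR test of the difference between tumors in the radiation response of macrophage-like cells (MC38 minus Panc02-SIY). The background of calls was 0.0193% higher and 0.0289% lower. An unadjusted p below 0.05 was found for 2 of the 4, and for 883 of all 10365 genes tested. The log2 difference was 0.77 for Phlda3 (edgeR adjusted p 0.741), 0.78 for Ccng1 (SE 0.174, adjusted p 0.137), -0.42 for Cox6b2 (adjusted p 0.876) and 0.57 for Dcxr (adjusted p 0.469). The Ccng1 difference was called with DESeq2 (0.78, adjusted p 0.0338) and with 1 library left out, namely untreated MC38 replicate 3 (0.89) or replicate 4 of irradiated MC38 (0.83) or of irradiated Panc02-SIY (0.83). It turned to -0.02 with every barcode kept (unadjusted p 0.912) and the Phlda3 difference turned to -1.23 (edgeR adjusted p 0.509). Cox6b2 (-0.81, edgeR adjusted p 0.626) and Dcxr (0.08, adjusted p 0.987) were not called either (0.0185% of genes higher, 0.0556% lower). With every barcode kept, 2 of the 4 and 844 of all 10799 genes had an unadjusted p below 0.05. Before treatment the levels differed between the tumors, where 25.1% of genes were called as higher and 27.7% as lower in MC38. Phlda3 (log2 1.21), Cox6b2 (0.76) and Dcxr (0.42) were called as higher and Ccng1 (-0.61) as lower in untreated MC38 macrophage-like cells. These lie in another cluster than most of those of Panc02-SIY. With every barcode kept, the untreated Ccng1 difference was -0.04 and was not called.

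T cell-like barcodes of Panc02-SIY tumors had all 4 genes higher after radiation therapy, with fitted fold changes of Phlda3, Cox6b2 and Dcxr above those of the other named classes in this tumor when each barcode was kept once. The Phlda3 change with every barcode kept was 4.97 here and 5.18 in NK cell-like barcodes. Phlda3 was 1.97, 1.07, 1.55 and 0.82903 CPM untreated and 68.6, 37.1, 35.8 and 40.6 irradiated. Ccng1 was 64.7, 68.8, 75.65 and 57.6 untreated and 405, 316, 329 and 347 irradiated. The irradiated libraries stood far above the untreated ones in both, and replicate 1 was the highest irradiated library in each.

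Cox6b2 was nearly absent from untreated T cell-like barcodes, at 1.58, 1.202, 0.774 and 1.27 CPM, and was 24.6, 12.05, 29.99 and 18.4 after irradiation. Dcxr was 11.4, 8.42, 8.32 and 7.96 untreated and 46.1, 28.6, 35.3 and 40.2 irradiated. No group overlapped for any of the 4 genes.

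All 4 were called, where 3.09% of genes were raised. The log2 fold change was 5.11 (SE 0.289, edgeR adjusted p 9.96e-09) for Phlda3, 2.29 (SE 0.137, adjusted p 9.96e-09) for Ccng1, 3.97 (SE 0.318, adjusted p 5.40e-07) for Cox6b2 and 1.97 (SE 0.168, adjusted p 9.13e-07) for Dcxr. In clusters 0 (led by Cd8a), 9 (led by histone genes and Mki67) and 12 (with Cd4 and Cd40lg among its leading genes), each of the 4 was called (backgrounds 1.35%, 9.42% and 0.365%). T cell-like barcodes with a Cd8a or Cd8b1 transcript and no Cd4 had log2 fold changes of 5.34, 2.41, 4.07 and 1.91 in the same gene order, all called (3.34%). In those with Cd4 and no Cd8 transcript, Ccng1 alone passed the filter and was called (1.45, edgeR adjusted p 0.00582, background 0.704%). MC38 had too few T cell-like barcodes for this test. With a minimum of 5 barcodes, set after the data were seen, Phlda3 was called in MC38 (2.87, SE 0.761, edgeR adjusted p 0.0739, background 0.991%). Ccng1 (1.35, edgeR adjusted p 0.145), Dcxr (1.27, adjusted p 0.459) and Cox6b2 (adjusted p 0.348) were not. With every barcode kept none was called in MC38 (0.379%). There, 3 of 4 and 748 of all 7385 genes had an unadjusted p below 0.05.

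Clusters 3 and 13 also raised T cell markers, 8 and 7 of 8, but stayed unnamed because genes of other classes led them. In Panc02-SIY barcodes of cluster 3, led by Ly6c2, S1pr1 and Ccl5, Phlda3 was 1.08, 2.00, 0.703 and 1.95 CPM untreated and 30.1, 37.65, 64.7 and 63.45 irradiated, and Cox6b2 was 1.08, 1.33, 1.41 and 1.95 untreated and 34.8, 24.7, 47.6 and 73.6 irradiated. No group overlapped for either gene. The edgeR log2 fold changes of Phlda3, Ccng1, Cox6b2 and Dcxr were 4.89, 2.03, 4.76 and 2.02, all called, where 2.27% of genes were raised. In cluster 13, led by Tnfrsf4, Ikzf2, Il10 and Foxp3, Phlda3 was 3.59, 0, 3.85 and 0 CPM untreated and 90.05, 37.0, 64.1 and 62.2 irradiated, and Phlda3 (4.23) and Ccng1 (1.90) were called, where 0.298% of genes were raised. Cox6b2 had 0 UMIs untreated and 12 irradiated in cluster 13, at least 3.49-fold higher over the pooled counts, and was not called (4.36, adjusted p 0.504). Other unnamed clusters gave mixed results. Ccng1 (1.76) and Dcxr (1.16) were called in Panc02-SIY barcodes of cluster 1, led by Mmp13 and Ccl8 (background 1.32%). In cluster 8, led by Gzmf and Txk, Ccng1 was called in Panc02-SIY (3.58, background 0.603%) and not in MC38 (2.28, adjusted p 0.148, background 0.268%). In cluster 11, led by Siglech and Ccr9 but with 7 macrophage markers raised, it was called in MC38 (1.90, background 1.13%). It was not called there in Panc02-SIY (-0.17, adjusted p 0.937, background 4.45%). The difference between the tumors (MC38 minus Panc02-SIY) was not called in cluster 8 (-1.30, edgeR adjusted p 0.960) or cluster 11 (2.06, edgeR adjusted p 0.411). Ccng1 was not called in Panc02-SIY barcodes of cluster 7, led by mitochondrial genes (1.15, adjusted p 0.894, background 0.0737%).

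Markers of other cells and the depth were read beside these values. In T cell-like barcodes, summed macrophage markers were between 116 and 328 CPM untreated and between 131 and 180 irradiated, and summed cDC markers between 26.5 and 63.5 and between 45.3 and 101. Median UMIs per barcode were lower after irradiation, between 5505 and 7247 against 8004.5 and 9311. Their part in the results was not tested.

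Single barcodes were also compared at 1 depth, by thinning each to 2000 UMIs. Phlda3 was then detected in 0.239% of 2926 untreated and 7.17% of 2065 irradiated T cell-like barcodes of Panc02-SIY, and Ccng1 in 12.6% and 45.3%. The shares were 0.273% and 2.76% for Cox6b2 and 1.81% and 7.12% for Dcxr. Without thinning the Phlda3 shares were 1.01% of 2978 and 20.8% of 2104, at median depths of 8847 and 6543.5 UMIs. In B cell-like barcodes Phlda3 was found in 0 of 64 thinned untreated and 0 of 119 thinned irradiated barcodes, which allows shares of up to 4.69% and 2.52%, at median depths of 3981.5 and 3291 UMIs. Such limits cover counting error only.

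**Figure D2:**
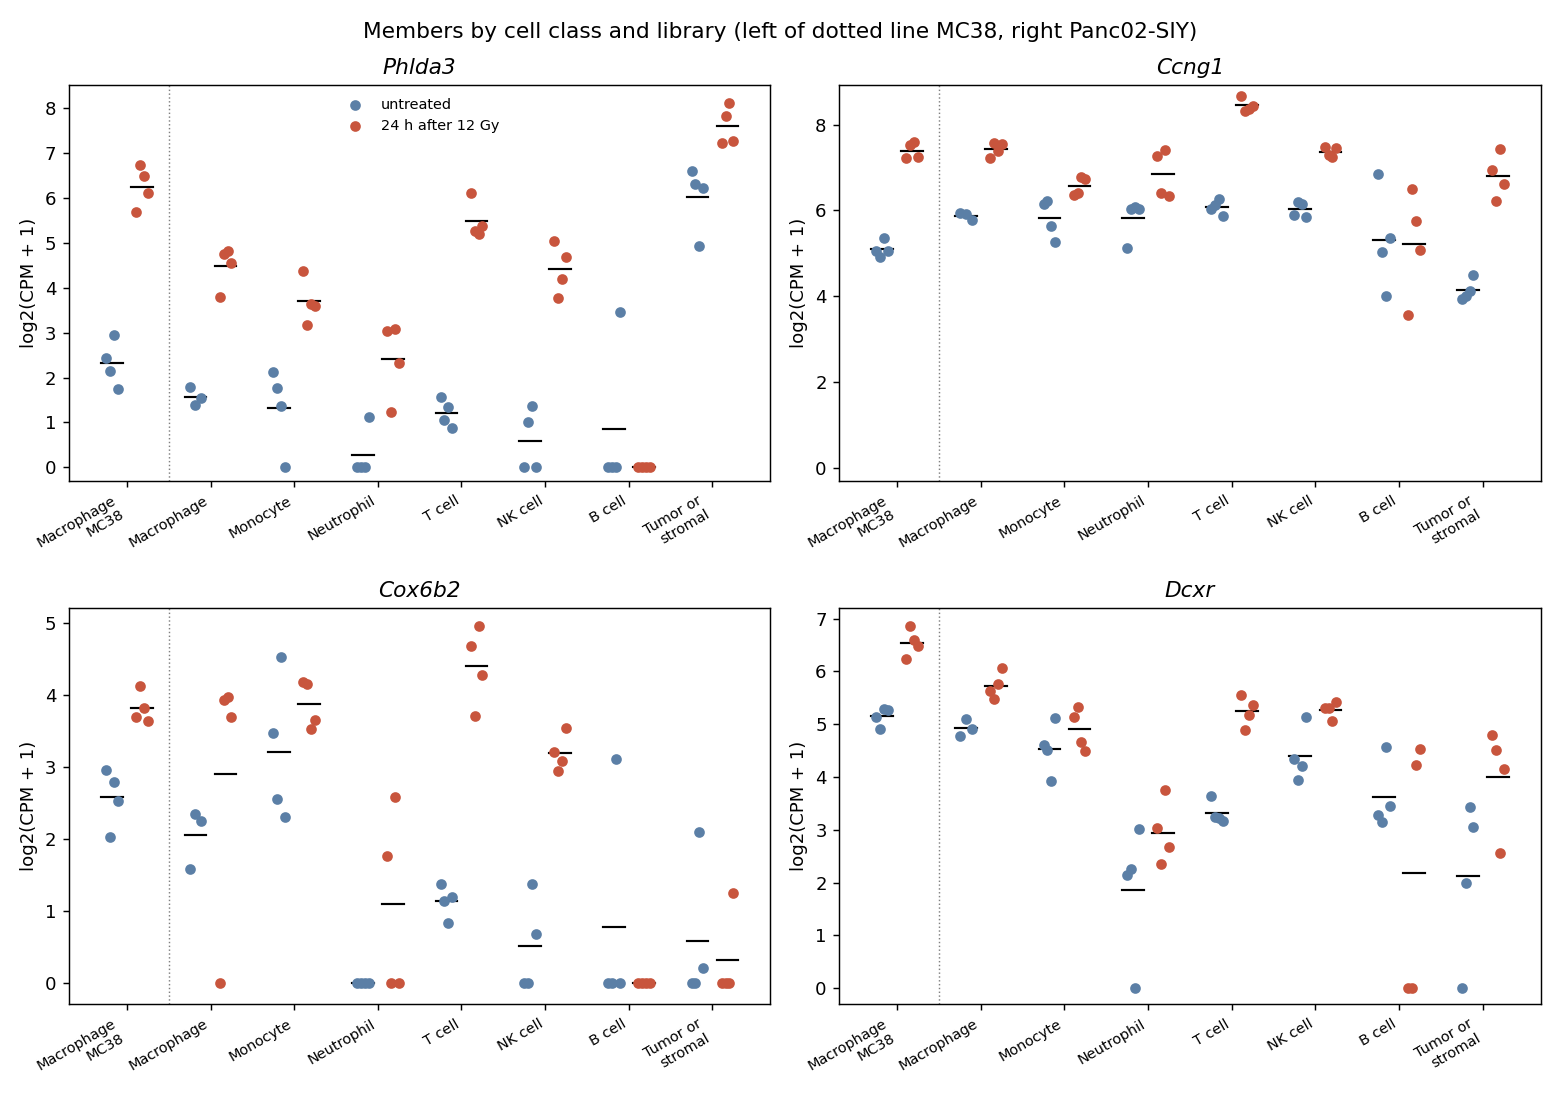
Level of each gene as log2(CPM + 1) by class, 1 point per library with at least 10 barcodes of the class, untreated in blue and irradiated in red, with black lines at the group means. Left of the dotted line are MC38 macrophage-like cells and right of it the Panc02-SIY classes, where the red points stand clear of the blue ones in T cell-like barcodes for all 4 genes.

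NK cell-like barcodes of Panc02-SIY tumors had Phlda3 at 0, 1.02, 1.58 and 0 CPM untreated and 32.0, 12.65, 17.4 and 24.6 irradiated. Over all libraries that was 3 UMIs against 131, a pooled ratio of 34.5 with a 95% counting interval from 11.5 to 169. Ccng1 was 58.2, 72.6, 70.5 and 56.2 untreated and 176, 156, 151 and 175 irradiated. Both were apart between the groups.

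Cox6b2 in NK cell-like barcodes was 0, 0, 1.58 and 0.598 CPM untreated and 8.22, 6.66, 7.47 and 10.6 irradiated, 3 UMIs against 52 in all, for a pooled ratio of 13.7 (interval 4.43 to 68.5). Dcxr was 19.4, 14.3, 17.4 and 34.1 untreated and 38.35, 38.6, 32.35 and 41.7 irradiated. Dcxr overlapped, since untreated replicate 4 lay above irradiated replicate 3.

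Phlda3, Ccng1 and Cox6b2 were called in NK cell-like barcodes, 3 of 4 where 1.06% of genes were raised. The fitted log2 fold changes were 4.79 (SE 0.547, edgeR adjusted p 2.22e-06), 1.299 (SE 0.144, adjusted p 1.61e-06) and 3.46 (SE 0.676, adjusted p 0.00696). Dcxr, at 0.69 (SE 0.228), was not called (adjusted p 0.148), and without untreated replicate 4 it was 1.11 and was called (adjusted p 0.0301). Within cluster 16, led by Gzmc and Xcl1, Ccng1 (2.66) and Dcxr (1.39) were called (background 1.59%). Within cluster 2, led by Gzma and Klra8, Phlda3 (4.72) and Ccng1 (0.83) were called and Dcxr (0.44) was not (0.703%). Summed macrophage markers in NK cell-like barcodes were between 29.6 and 254 CPM untreated and between 134 and 167 irradiated, and summed cDC markers between 16.6 and 50.01 CPM untreated and between 25.6 and 35.7 CPM irradiated. For both lists the irradiated range lay within the untreated one. Some other measures moved without overlap. Summed NK cell markers were between 8840 and 11650 CPM untreated and between 12703 and 16141 irradiated. T cell markers were between 615.4 and 901 and between 446 and 615.3, and B cell markers between 98.2 and 111 and between 65.3 and 88.0. Median UMIs per barcode were between 5623.5 and 5955 and between 3760 and 5156.5. Neutrophil, monocyte and tumor or stromal markers and the mitochondrial share overlapped. The part of these measures in the results was not tested. In MC38, NK cell-like barcodes could be tested only with every barcode kept. Phlda3 (1.53, edgeR adjusted p 0.445), Ccng1 (0.97, adjusted p 0.158) and Dcxr (0.83, adjusted p 0.690) were then not called (background 0.0697%). Of these 3, 2 had an unadjusted p below 0.05, as had 522 of all 7172 genes.

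Monocyte-like and neutrophil-like barcodes of Panc02-SIY gave no call with edgeR. An unadjusted p below 0.05 was found for 2 of 4 genes tested in the former and 1 of 1 in the latter. Over all genes it was found for 717 of 8040 and 492 of 5236. DESeq2, which gave an adjusted p for 1 gene in each, called 0 and 1. In monocyte-like barcodes of Panc02-SIY, Phlda3 was 3.35, 2.43, 1.57 and 0 CPM untreated and 19.8, 7.97, 11.5 and 11.2 irradiated, and Ccng1 was 70.25, 72.9, 48.5 and 37.5 untreated and 81.65, 84.1, 108 and 105 irradiated. Both pairs of groups were apart, yet neither passed the test, with log2 fold changes of 2.76 (SE 0.702, edgeR adjusted p 0.144) and 0.76 (SE 0.202, adjusted p 0.168), where 0.162% of genes were raised. Cox6b2 (0.25, adjusted p 0.936) and Dcxr (0.30, adjusted p 0.832) overlapped between the groups. In MC38, tested only with every barcode kept, monocyte-like Ccng1 (0.08) and Dcxr (-0.20) were not called (background 0%), neither with an unadjusted p below 0.05. In neutrophil-like barcodes Ccng1 was 34.1, 64.4, 67.0 and 64.0 untreated and 153, 83.1, 168 and 80.3 irradiated, without overlap, and had a log2 fold change of 1.00 (SE 0.259, adjusted p 0.243, background 0.0382%). Phlda3 had 1 UMI in untreated and 13 in irradiated neutrophil-like barcodes, a pooled ratio of 9.23 with a counting interval from 1.39 to 392, and did not pass the filter on low counts.

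B cell-like barcodes showed no such pattern within the limits of 12 to 42 barcodes per library. Phlda3 was 0, 0, 0 and 9.96 CPM untreated and 0 in all 4 irradiated libraries of Panc02-SIY. Ccng1 was 114, 31.65, 15.2 and 39.85 untreated and 10.8, 89.4, 53.02 and 33.0 irradiated, with the groups overlapping throughout. None of the 4 genes passed the filter on low counts, and the background was 0%. Cdkn1a, the p53 target gene for the cell cycle inhibitor p21, was between 0 and 23.7 untreated and between 6.39 and 17.7 irradiated in this class.

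Tumor or stromal-like barcodes differed from the immune classes in their untreated Phlda3 level. It was 95.6, 77.9, 29.3 and 73.7 CPM in untreated Panc02-SIY, 69.1 ± 28.2 (SD, n = 4), and no other untreated class of this tumor averaged above 2.49. After irradiation it was 149, 225.5, 275 and 154, or 201 ± 60.6. Ccng1 in turn was low before treatment, at 14.3, 14.98, 16.3 and 21.6, and 122.5, 73.4, 172 and 96.4 after it. Both were called, with log2 fold changes of 1.48 (SE 0.289, edgeR adjusted p 0.00215) and 2.57 (SE 0.345, adjusted p 3.93e-07), 2 of the 2 that passed the filter where 0.132% of genes were raised.

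This class joins cluster 15, led by Igfbp7 and Ubd, with 128 untreated and 83 irradiated barcodes of Panc02-SIY, and cluster 18, led by Mgp and Dcn, with 168 and 66. Median UMIs per barcode of the joined class were between 2114 and 32574.5 untreated and between 1209 and 29966 irradiated, with medians over the libraries of 13984.5 and 1577.5. Summed tumor or stromal markers had a median of 1807 CPM untreated, with 1 library at 15906, and lay between 1576 and 1967 irradiated. In cluster 18, which held most of the UMIs, Phlda3 was 71.6, 74.3, 31.9 and 74.2 untreated and 165, 237, 275 and 156 irradiated, and Ccng1 was 17.9, 15.3, 17.7 and 21.5 untreated and 114, 67.2, 157 and 95.5 irradiated, all apart. In the shallow cluster 15, Phlda3 overlapped, with 22 UMIs untreated and 13 irradiated, and Ccng1 had 4 and 22.

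Dcxr in the same barcodes was 0, 3.00, 9.78 and 7.30 CPM untreated and 26.6, 21.7, 4.92 and 16.8 irradiated, and Cox6b2 had 2 UMIs untreated and 3 irradiated. Cox6b2 was thus at or near its counting floor here. In MC38 the tumor or stromal-like sums were small, with 7 untreated and 3 irradiated UMIs of Phlda3 in all, and neither Phlda3 nor Ccng1 was called by edgeR or DESeq2 or had an unadjusted p below 0.05 (background 0%). These MC38 sums held more macrophage markers (between 1492 and 3991 CPM untreated and between 823 and 2901 irradiated) than tumor or stromal markers (between 195 and 337 and between 219 and 322), and the part of this in the comparison that follows was not tested. Only macrophage-like and tumor or stromal-like sums could be set against each other in both tumors, in 14 libraries. On the scale of log2(CPM + 5), the response was larger in macrophage-like cells by 2.66 for Phlda3 and by 0.82 for Cox6b2. Each had an adjusted p of 0.0359 (permutation test of the treatment labels within tumors, two-sided, 1225 relabelings). By the same permutation test, the 0.74 of Ccng1 (adjusted p 0.491) and 0.53 of Dcxr (adjusted p 0.171) did not pass. These p-values were adjusted over the 4 genes alone, so no share over all genes stands beside them. On this scale the Phlda3 difference was 5.12 in MC38 and 0.20 in Panc02-SIY, so it rests on the small MC38 sums. The 0.20 is no difference of folds. Untreated Panc02-SIY macrophage-like Phlda3 lay below the 5 CPM added, which shrinks its response, and the tumor or stromal-like level lay far above. The edgeR log2 fold changes in Panc02-SIY were 3.57 and 1.48, and their difference was not tested. Cox6b2 had 0 UMIs in these MC38 tumor or stromal-like sums, untreated and irradiated. With counts this low, the 5 CPM added hold its response there near 0. The test therefore cannot compare its fold response between the classes. Without untreated MC38 replicate 2 or 3 none of the 4 passed.

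The order of classes differed by gene in irradiated Panc02-SIY tumors, where mast cell or basophil-like barcodes, too few per library for a test, were not ranked. The cDC-like barcodes, in which the 4 genes had been chosen, were not ranked either. For Phlda3, tumor or stromal-like barcodes (201 ± 60.6) stood above T cell-like (45.5 ± 15.5), which stood above macrophage-like (22.1 ± 6.46), NK cell-like (21.7 ± 8.45) and monocyte-like barcodes (12.6 ± 5.03, each SD, n = 4). Neighbours from macrophage-like to monocyte-like overlapped. For Ccng1, T cell-like barcodes were highest (349 ± 39.5) and did not overlap with macrophage-like (172 ± 18.5) or NK cell-like (165 ± 12.99) barcodes, which overlapped with each other. Of the ranked classes, Dcxr was highest in macrophage-like barcodes (52.7 ± 9.51). These overlapped with no library of the next by mean, NK cell-like (37.8 ± 3.92). T cell-like barcodes (37.5 ± 7.41) overlapped with the NK cell-like ones, and their highest library lay above the lowest macrophage-like one. For Cox6b2, T cell-like (21.2 ± 7.75), monocyte-like (13.9 ± 3.44), macrophage-like (10.2 ± 6.90) and NK cell-like barcodes (8.22 ± 1.68) overlapped from neighbour to neighbour. In the unranked mast cell or basophil-like barcodes, the level pooled over irradiated libraries was 63.0 for Dcxr and 61.4 for Cox6b2. Both lay above every class mean given here for these genes. In the unranked cDC-like barcodes, each irradiated library, given further above, was over every class mean for Cox6b2. For Dcxr their highest library was, and the others were not.

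Responses of classes within the same 8 Panc02-SIY libraries were compared with the library as a term in the fit, over 40 pairs of a class pair and a gene, with p-values adjusted over the 10348 genes of each fit. The Ccng1 response was larger in T cell-like than in NK cell-like barcodes by 1.00 on the log2 scale (95% interval 0.60 to 1.41, edgeR adjusted p 0.0142, 0.145% of genes called), than in monocyte-like by 1.51 (adjusted p 0.000261, background 1.02%) and than in neutrophil-like by 1.29 (adjusted p 0.00531, background 0.106%). Dcxr responded more in T cell-like than in NK cell-like (1.28, adjusted p 0.0741) and monocyte-like barcodes (1.71, adjusted p 0.0131), and Cox6b2 more than in monocyte-like barcodes (3.57, interval 2.24 to 4.91, adjusted p 0.00225). These 6 of the 40 were called, and this comparison was chosen after the data were seen. The NK cell-like class joins 2 clusters. The Ccng1 change given above for cluster 16 was larger than that of the T cell-like class, and that for cluster 2 was smaller. Panc02-SIY barcodes went from 573 untreated to 1107 irradiated in cluster 2 and from 172 to 163 in cluster 16. The part of this mix was not tested.

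Differences between T cell-like and macrophage-like responses did not pass (0.0387% of genes called). They were 1.68 for Phlda3 (95% interval 0.71 to 2.64, edgeR adjusted p 0.267), 0.66 for Ccng1 (0.25 to 1.07, adjusted p 0.335), 2.09 for Cox6b2 (0.95 to 3.24, adjusted p 0.198) and 1.06 for Dcxr (0.48 to 1.63, adjusted p 0.196). For Phlda3, the T minus NK difference of 0.07 had an interval from -8.79 to 8.94 and could not separate the classes. The interval was worked out from the difference and its test statistic, which is unstable for a difference near 0. From the same NK counts, the NK minus macrophage difference of 1.60 had an interval from -0.04 to 3.25.

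**Figure D3:**
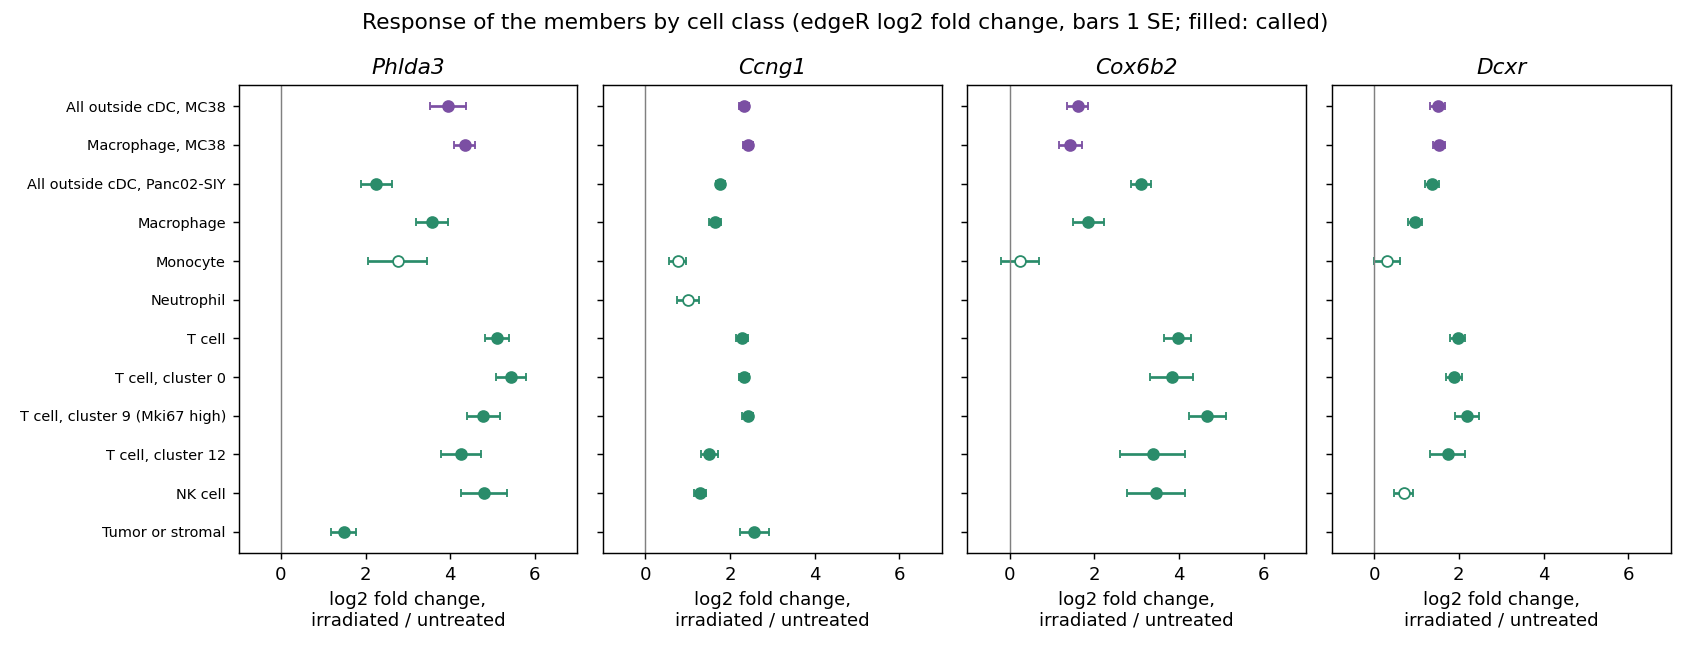
Log2 fold change of irradiated against untreated libraries (edgeR, error bars 1 SE) for each gene and class, MC38 in purple and Panc02-SIY in green, filled where called. Of the named Panc02-SIY classes plotted, single clusters aside, T cell-like barcodes have the highest values for Phlda3 (5.11), Cox6b2 (3.97) and Dcxr (1.97). Their Ccng1 value (2.29) lies below that of tumor or stromal-like barcodes (2.57). The single T cell-like clusters are plotted too, and Phlda3 lies higher, at 5.44, in cluster 0.

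Pooling every kept barcode outside the cDC-like clusters gave the 4 genes higher after irradiation in both tumors. Cox6b2 was 5.49, 3.05, 6.15 and 4.14 CPM in untreated and 12.1, 16.8, 13.25 and 12.1 in irradiated MC38 libraries, and 1.305, 1.23, 2.58 and 1.725 against 14.96, 13.15, 18.9 and 16.35 in Panc02-SIY. The untreated groups were apart between the tumors, with MC38 higher. The log2 fold changes in MC38 were 3.94, 2.34, 1.61 and 1.497 for Phlda3, Ccng1, Cox6b2 and Dcxr, all called (background 7.61%), and 2.33, 1.59, 1.17 and 1.04, all called, with every barcode kept (2.84%). In Panc02-SIY they were 2.26, 1.77, 3.11 and 1.36, all called (7.85%).

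In these pooled sums the Cox6b2 response was smaller in MC38 than in Panc02-SIY, with a log2 difference of -1.4999 (SE 0.335, edgeR adjusted p 0.0861, where 0.373% of genes were lower), and of -1.89 with every barcode kept (adjusted p 0.0182, background 1.28%). The call was lost with a marker gate per barcode (-1.196, adjusted p 0.236), with a filter on cells (-1.44, adjusted p 0.1025), and without any 1 of 8 of the libraries, where the difference lay between -1.57 and -1.33 with adjusted p from 0.1195 to 0.192. Such a sum mixes classes, so a change within cells cannot be told apart from a change in the mix. No other of the 4 genes was called by edgeR for this difference in kept barcodes, where Phlda3 lay at 1.68 (edgeR adjusted p 0.237). Ccng1 was called with DESeq2 (0.52, adjusted p 0.087). An unadjusted p below 0.05 was found for 3 of the 4, and for 1497 of all 12346 genes.

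Other genes of the p53 pathway, a list of 48 without the 4 genes, were read beside them. The list came from general knowledge and was chosen with earlier results of these data known. In MC38 macrophage-like cells 23 of 41 tested were raised, where 6.47% of all genes were, and 1 was lowered, where 6.76% were. The median log2 fold change was 0.70 against 0.00 over all genes tested. In Panc02-SIY 18 of 41 were raised (3.79% of all genes, median 0.66 against 0.02). The counts were 19 of 44 in T cell-like (3.09% of all genes, median 0.81 against 0.02) and 10 of 35 in NK cell-like barcodes (1.06%, 0.42 against 0.00). They were 1 of 33 in monocyte-like (0.162% of all genes) and 1 of 21 in neutrophil-like barcodes (0.0382%) of Panc02-SIY. In its B cell-like barcodes the count was 0 of 3 (0%), and in its tumor or stromal-like ones 1 of 13 (0.132%). The single gene raised in each of monocyte-like, neutrophil-like and tumor or stromal-like barcodes was Cdkn1a.

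Cdkn1a rose by a log2 fold of 2.05 in MC38 macrophage-like cells, 3.78 in those of Panc02-SIY, 3.46 in T cell-like, 2.26 in NK cell-like, 0.89 in monocyte-like, 1.502 in neutrophil-like and 3.06 in tumor or stromal-like barcodes. Its macrophage response differed between the tumors by -1.73 (MC38 minus Panc02-SIY, edgeR adjusted p 0.000293), and by -2.10 without a call when every barcode was kept (adjusted p 0.231). The Cdkn1a level was higher in MC38 before treatment, between 322 and 410 CPM against 40.7 to 70.4 in the Panc02-SIY libraries tested. After irradiation it was also higher in MC38, between 1382 and 1586 against 696 to 833. Mdm2, the ubiquitin ligase gene that restrains p53, rose in MC38 (1.74) and Panc02-SIY (1.31) macrophage-like and in T cell-like barcodes (0.82), and its 0.48 in NK cell-like barcodes did not pass (adjusted p 0.148). Zmat3 (2.49) and Bax (1.25) were the other named genes in MC38 macrophage-like cells, Trp53inp1 (2.05) and Bbc3 (1.61) in those of Panc02-SIY, Bbc3 (3.36), Trp53inp1 (2.04) and Bax (1.34) in T cell-like, and Psrc1 (4.37) and Bax (0.97) in NK cell-like barcodes. Bax and Bbc3 encode proteins that promote mitochondrial cell death.

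Relatives of the 4 genes, 21 genes of the same families or reactions, were not raised in any named class. Ccng2 was called in the T cell-like barcodes with a CD8 transcript (0.39, adjusted p 0.0909), and Sord, a gene of sugar alcohol metabolism, in the pooled Panc02-SIY barcodes outside the cDCs (0.47, adjusted p 0.0270). Of 10 other cytochrome c oxidase genes, 4 were lowered in T cell-like barcodes of Panc02-SIY, Cox5b (-0.55), Cox5a (-0.51), Cox7b (-0.45) and Cox7a2 (-0.41), with a median of -0.34 over the 10 against 0.02 over all genes, where 4.52% of genes were lowered. In the same barcodes Cox6b2 rose by 3.97. Cox5b was also lowered in Panc02-SIY macrophage-like cells (-0.51, background 3.47%), and Cryl1, the gene of a related sugar enzyme, in those of MC38 (-0.76, background 6.76%).

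**Figure D4:**
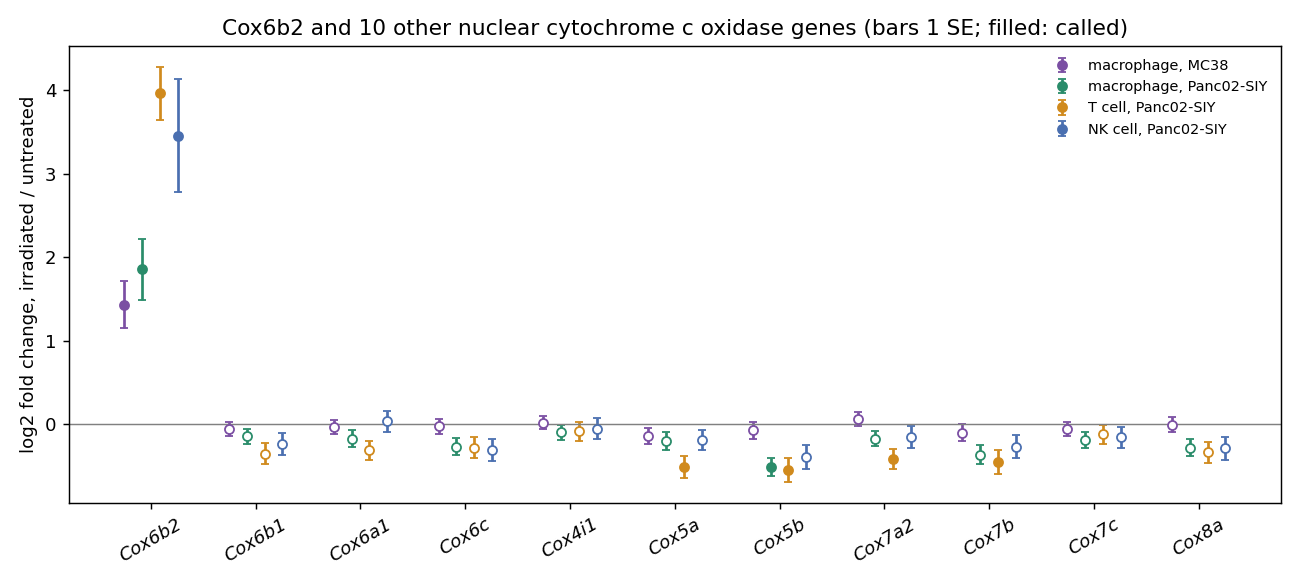
Log2 fold change (edgeR, error bars 1 SE) of Cox6b2 and 10 other cytochrome c oxidase genes after irradiation in the named classes shown. Cox6b2 lies at 1.43 in MC38 macrophage-like, 1.86 in Panc02-SIY macrophage-like, 3.97 in T cell-like and 3.46 in NK cell-like barcodes, and none of the other 10 was raised.

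The genes whose levels went most like those of each of the 4 were sought over 77 sums of a class in a library. These covered 7 classes without cDCs, and the mean of each class and tumor had been taken off. The 1347 candidates were genes that passed the filter in every class, with the 4 genes added without regard to the filter. Treatment was not taken off, and the 4 had been chosen for a rise after irradiation, so their likeness to each other is no test. The sums share libraries and depth, so the correlations are a description. For Phlda3 the nearest were Ccng1 (Pearson r 0.75), Cox6b2 (0.62), Dcxr (0.57), Hif1a (0.56) and Ier5 (0.55). For Ccng1 they were Phlda3, Tmem30a (0.64), Clec2d (0.61), Zcchc6 (0.58) and 2810474O19Rik (0.57). For Cox6b2 they were Phlda3, Dcxr (0.53), Rps19 (0.53), Rps27l (0.46) and Wnk1 (0.45), and for Dcxr they were Phlda3, Cox6b2, Npc2 (0.52), Ccng1 (0.51) and Pim1 (0.48).

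Leaving out the small B cell-like and tumor or stromal-like sums, a choice made after the values were seen, left 54 sums and admitted 4742 genes. Phlda3 was then nearest to Ccng1 (0.95), Bax (0.93), Laptm5 (0.89), Trp53inp1 (0.87) and Cdkn1a (0.87). Cox6b2 was nearest to Laptm5 and Phlda3 (0.80 each), and Dcxr to Phlda3 (0.83), Malat1 (0.82) and Bax (0.82).

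In GENCODE vM21 for mm10, Phlda3 (ENSMUSG00000041801) spans chr1:135766119-135769136 on the plus strand. Ccng1 (ENSMUSG00000020326) spans chr11:40748552-40755311, Cox6b2 (ENSMUSG00000051811) chr7:4751792-4753094 and Dcxr (ENSMUSG00000039450) chr11:120725399-120727281, all on the minus strand. The 3′ kit counts only reads near the end of a transcript, so transcript forms were not separated.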

How the data were processed

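Raw UMI counts per barcode and gene were deposited by the authors, 1 matrix per library, made with Cell Ranger 3.1.0 and bcl2fastq 2.20.0 against mm10, as the submitters' processing notes list them. Counts were checked to be whole numbers. A combined matrix of the whole series was not used here. The 4 genes, the gene lists and the class markers were chosen with earlier results of these data known.

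Each barcode was kept in the library of its tumor with most UMIs. Counts were clustered with scanpy 1.11.5 and leidenalg 0.10.2 (Python 3.11.15; 2000 variable genes, 30 principal components, 20 neighbors, resolution 1), and clusters took the name of a class with 3 or more of its markers above the other clusters by a log2 fold of 1. A cluster stayed unnamed where another class had more markers raised or among its leading genes, where its barcodes were shallow and none of its markers led it, where fewer than 3 markers were raised, or where Ccr3 led it, the first and last of these added after the clusters were seen. Scrublet's own threshold marked 31 barcodes (0.108%) and had not worked, so doublets stayed in and removal of the 5% with the highest scores per library was an alternative.

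Counts were summed per class and library (at least 10 barcodes, at least 3 libraries a group) and fitted with edgeR 4.0.16 under R 4.3.3 (low counts filtered by filterByExpr at 10, TMM, robust quasi-likelihood tests, 1 coefficient per group over all groups of the class). P-values were adjusted over all genes of a fit by Benjamini-Hochberg, with calls at 0.1 and a fold of 1.3, the limits of the study's methods. The cDC fit filtered at 3 counts and 15 in total. Differences between classes in both tumors were tested by permutation with a pseudocount of 5. Those p-values were adjusted over the tests of the 4 genes and not over all genes. The edgeR fits were also tested on simulated data. The genes named are the 4 in every class, the 3 genes of the p53 list with the smallest adjusted p among those called, Cdkn1a and Mdm2, called relatives, the 5 genes most like each, and the genes at the edge of the choice. The relatives' and p53 lists came from general knowledge.

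Alternatives were every barcode kept, DESeq2 1.42.0, other size factors, no low-count filter, stricter limits, a fit of the compared groups alone, a block for the replicate number, doublets removed, a cell filter (500 genes, at most 10% mitochondrial UMIs), thinning, a marker gate per barcode, single clusters, 5 barcodes per library and leaving out each library.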

Additional observations from a re-analysis of the deposited data

Results flagged for a closer look

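In 4 of 44 groups of 4 libraries, 1 library stood far from the other 3, where chance alone gives about 1 in 20. In untreated Panc02-SIY tumors these were Ccng1 in neutrophil-like barcodes of replicate 1, the lowest at 34.1 CPM, and Dcxr in T cell-like barcodes of replicate 1, the highest at 11.4. In irradiated Panc02-SIY tumors, Phlda3 in T cell-like barcodes of replicate 1 was the highest at 68.6. In untreated MC38 tumors, Phlda3 in tumor or stromal-like barcodes of replicate 4 was the highest at 129.8, from a sum of few UMIs.

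The Cox6b2 response over all barcodes outside the cDC-like clusters differed between the tumors by -1.50 on the log2 scale (MC38 minus Panc02-SIY), by an edgeR test of the difference itself. The call held with every barcode kept. It was lost with a marker gate, a cell filter, an adjusted p limit of 0.05, or any 1 of several libraries left out. The sum mixes classes, so a change within cells cannot be told apart from a change in the mix.

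Within Panc02-SIY, tests of the difference between the responses of classes passed for 6 pairs. T cell-like barcodes responded more than NK cell-like ones in Ccng1 (1.00 on the log2 scale) and Dcxr (1.28), more than monocyte-like ones in Cox6b2 (3.57), Ccng1 (1.51) and Dcxr (1.71), and more than neutrophil-like ones in Ccng1 (1.29). In a permutation test that joined both tumors, the macrophage-like response passed against the tumor or stromal-like one for Phlda3 (2.66) and Cox6b2 (0.82). On the scale with 5 CPM added, the Phlda3 difference was 5.12 in MC38 and 0.20 in Panc02-SIY. The amount added shrinks the macrophage-like response in Panc02-SIY, so the 0.20 is no difference of folds. Cox6b2 had 0 UMIs in the MC38 tumor or stromal-like sums, so its fold responses could not be compared. Neither gene passed without untreated MC38 replicate 2 or 3.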

How the results depend on the processing

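Single values kept their direction and side of the threshold in 1151 instances, gained a call in 18, lost one in 11, all 11 for the Cox6b2 difference between tumors outside the cDCs, and changed direction in 15, none of them called before or after. When every barcode was kept, the differences between tumors (MC38 minus Panc02-SIY) turned to -1.23 for Phlda3 and -0.0215 for Ccng1 in macrophage-like cells and to -0.17 for Ccng1 and -0.31 for Dcxr outside the cDCs. Thinning turned this last difference to -0.15, Dcxr in monocyte-like barcodes to -0.02 and Ccng1 in MC38 tumor or stromal-like ones to -5.76. With 1 library left out, the Dcxr difference outside the cDCs lay between -0.0807 and 0.25, Cox6b2 in monocyte-like barcodes between -0.0376 and 1.16, and in MC38 tumor or stromal-like ones Ccng1 between -7.00 and 2.32 and Phlda3 between -8.21 and 0.31. The cause was not tested. No rise within a named class lost its call in any alternative that refitted the whole class and gave an adjusted p. In NK cell-like barcodes DESeq2 gave an adjusted p for only 1 of the 4 genes, which it called, so it did not check the other calls there. Among single clusters Dcxr lost its call in cluster 6 of the Panc02-SIY macrophage-like cells (0.63, edgeR adjusted p 0.223). Gained calls outside the report's values were Ccng1 in monocyte-like barcodes with a marker gate (1.58) or no filter (adjusted p 0.0133), Ccng1 in neutrophil-like ones with DESeq2 (adjusted p 0.0874) or no filter (0.00218), Phlda3 (adjusted p 0.0101 without a filter) and Dcxr (1.29 with the gate) in monocyte-like ones, and Dcxr in NK cell-like ones with no filter (adjusted p 0.0699), thinning (0.90) and the gate (0.98). For these, the cause was not tested.

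Counts of raised genes over classes moved by more than 1.5 times only in MC38 with the marker gate, to 8 of 16 tests from 4 of 6, and lay between 4 and 5 with 1 library left out. In Panc02-SIY they were 13 of 19, and between 12 and 13 with 1 library left out. No share over all genes stands beside these counts or those that follow in this section. They show how calls moved and are not a result about the 4 genes. The count of class pairs that differed was 2 of 4, and became 17 of 40 with every barcode kept, 6 of 40 in the fit of Panc02-SIY libraries with the library as a term and 5 of 24 with the gate, more pairs being tested in each. It lay between 0 and 3 with 1 library left out and was 0 without untreated MC38 replicate 2 or 3. The count of responses that differed between the tumors within a class was 0 of 6 with edgeR, 1 with DESeq2, and between 0 and 1 with 1 library left out, the 1 being Ccng1 in macrophage-like cells.

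Same-numbered replicates deviated together in Panc02-SIY replicates 1, 3 and 4 (r 0.411, 0.322 and 0.755) and not in replicate 2 (-0.160) or in MC38 (-0.017 to 0.088), so the numbers were not taken to pair libraries. With the replicate number as a block, that count was 1 (0.73, adjusted p 0.0502), the Ccng1 difference in all barcodes outside the cDCs was called (0.55, adjusted p 0.0658) and Dcxr was called in NK cell-like barcodes (0.73, adjusted p 0.0217), with 14 of 15 tests raised in Panc02-SIY. The block changed no other call. Outside the cDCs the 4 genes stayed raised in both tumors under every alternative. Depth limits the classes of few barcodes, and 3 UMIs in the irradiated MC38 tumor or stromal-like sums already stand for 61.3 CPM.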

Other observations

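Mast cell or basophil-like barcodes of Panc02-SIY tumors, 51 untreated and 62 irradiated, were too few per library for a test. Phlda3 had no UMI in any untreated library and was 62.8, 53.9, 17.97 and 29.98 CPM in irradiated ones, at least 4.70-fold higher over the pooled counts with the untreated group set at 3 UMIs. Ccng1 was 33.5, 45.35, 53.75 and 36.4 untreated and 502.5, 140, 225 and 237 irradiated. Both were apart between the groups, as was Dcxr, which lay between 0 and 17.9 untreated and between 21.6 and 81.8 irradiated. Cox6b2 overlapped, with 36.4 in untreated replicate 4 against 8.99 in irradiated replicate 3.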
